A study of Mus musculus with 5 samples.

Results

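Adventitial fibroblasts are the collagen-producing cells of the cuffs of loose connective tissue around the larger airways and blood vessels of the lung. They are told apart from the alveolar fibroblasts of the gas-exchange septa by a set of secreted and surface proteins, among them the peptidase inhibitor Pi16, the matrix proteins dermatopontin (Dpt) and collagen XIV (Col14a1) and the eosinophil chemoattractant Ccl11. The cuffs carry lymphatics, nerves and resident immune cells, and their fibroblasts are known as sources of fibrillar collagen, complement components and chemokines. In the droplet libraries described here such cells were chosen by their transcripts alone: barcodes with at least 700 genes and 0.1 to 15% mitochondrial unique molecular identifiers (UMIs, each counting 1 captured RNA molecule), at least 3 UMIs of Pi16, Dpt, Ccl11 and Col14a1 together with at least 2 of the 4 detected, at least 1 UMI of Col1a2, none of the endothelial, epithelial and immune genes Cdh5, Pecam1, Epcam and Ptprc, at most 1 of the mural genes Cox4i2, Higd1b, Myh11 and Des, and none of the mesothelial genes Msln, Wt1 and Upk3b. Cells in which both Tcf21 and Npnt, markers of alveolar fibroblasts, were detected were left out. The rule kept 433 of 29500 cells.

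The 5 libraries came from lungs of adult mice. β1 AT2-KO mice carry a floxed Itgb1 gene, which encodes the β1 integrin subunit, together with SP-C rtTA and Tet-O-Cre, so that doxycycline removes the gene in alveolar type 2 (AT2) epithelial cells, not in fibroblasts. The littermate β1 fl/fl controls have the floxed gene without the Cre system and received doxycycline as well. Libraries were made 7 days after a single intratracheal dose of lipopolysaccharide (LPS, a bacterial cell wall component that inflames the lung) in β1 fl/fl and β1 AT2-KO mice, 7 days after the vehicle PBS in β1 AT2-KO mice, and 21 days after LPS in both genotypes. A PBS-treated β1 fl/fl library was not analysed here. The lungs of several mice were pooled into 1 library per condition after each mouse had received its own hashtag antibody. Immune and red blood cells had been removed by sorting for CD45- and Ter119-negative viable cells, and the day 21 suspensions were enriched for EPCAM-positive epithelial cells, which lowers the share of every other cell type.

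Sorting, pooling and hashtag labelling set the limits of what follows. Each condition was 1 library, so values of whole libraries have intervals for counting error only and no test. The hashtags separated 3 mice in each library, but they marked adventitial fibroblasts poorly: 23.1, 43.1, 4.55, 27.8 and 16% of them carried a single tag, in the order day 7 LPS β1 fl/fl, day 7 LPS β1 AT2-KO, day 7 PBS β1 AT2-KO, day 21 LPS β1 fl/fl and day 21 LPS β1 AT2-KO, against 59.8 to 80.2% of endothelial cells. All lists of 5 values below keep this order. Every endothelial cell pool of the day 7 LPS β1 fl/fl mice held UMIs of Xist, the X-inactivation RNA of female cells, and none of Y-linked genes, and every pool of the day 7 LPS β1 AT2-KO mice the reverse, so sex and genotype cannot be told apart at day 7. Endothelial pools of PBS mice 1, 2 and 3 held 1213, 57 and 51 Xist UMIs and 38, 684 and 762 Y-linked UMIs. Adventitial fibroblasts of the 5 libraries held 161, 0, 22, 150 and 38 Xist UMIs and 0, 128, 6, 12 and 28 Y-linked UMIs. The sexes were therefore also unequal between LPS and PBS and between the day 21 libraries. No barcode of an adventitial fibroblast occurred in more than 1 library.

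Adventitial fibroblasts were a small fraction of each library and the fraction differed several-fold between conditions. They made up 104 of 8330 cells (1.25%, exact 95% binomial interval 1.02 to 1.51), 160 of 7240 (2.21%, 1.88 to 2.58), 22 of 8671 (0.254%, 0.159 to 0.384), 97 of 2224 (4.36%, 3.55 to 5.29) and 50 of 3035 (1.65%, 1.23 to 2.17). The PBS library thus held the fewest, and at day 21 the share was higher in β1 fl/fl than in β1 AT2-KO. Among cells without an Epcam UMI the shares were 1.33, 2.46, 0.256, 4.91 and 3.35%, so the day 21 libraries stood closer together once epithelial cells were left out. Relative to mesenchymal cells alone the libraries stood closer together, at 23.9, 26.0, 15.7, 21.7 and 20.9%, with every pair of intervals overlapping. The mesenchymal cells themselves were 5.23, 8.49, 1.61, 20.1 and 7.87% of cells. In these suspensions a lower yield of a cell type from the tissue and a lower number in the tissue cannot be told apart.

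Among hashtagged cells the share of adventitial fibroblasts per mouse was 0.362, 0.399 and 0.385% in day 7 LPS β1 fl/fl, 0.928, 0.941 and 2.34% in day 7 LPS β1 AT2-KO, and 0, 0.0464 and 0% in day 7 PBS β1 AT2-KO. At day 21 it was 2.66, 2.11 and 2.64% in β1 fl/fl and 0.429, 0.887 and 0.142% in β1 AT2-KO. The groups did not overlap in any of the 3 comparisons, and the difference in means was 1.02 percentage points for genotype at day 7, 1.39 for LPS against PBS and -1.98 for genotype at day 21, each with p = 0.1 in a two-sided exact permutation test, the smallest value that 3 mice against 3 allow. Without β1 AT2-KO mouse 3 of the day 7 LPS library the first 2 differences were 0.552 and 0.919 percentage points. The share of adventitial fibroblasts that carried a tag was itself higher in the day 7 LPS β1 AT2-KO library than in the β1 fl/fl one (43.1 against 23.1%), which enters these values directly. With mesenchymal cells as the denominator the differences were 9.79 (p = 0.4), 14.9 (p = 0.4) and -19.7 percentage points (p = 0.2, exact permutation tests), and the mice of the groups overlapped in each. The PBS mice had only 6, 2 and 1 tagged mesenchymal cells. A single tagged adventitial fibroblast put PBS mouse 2 at 50%, so the comparison with PBS rests on that cell.

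**Figure D1:**
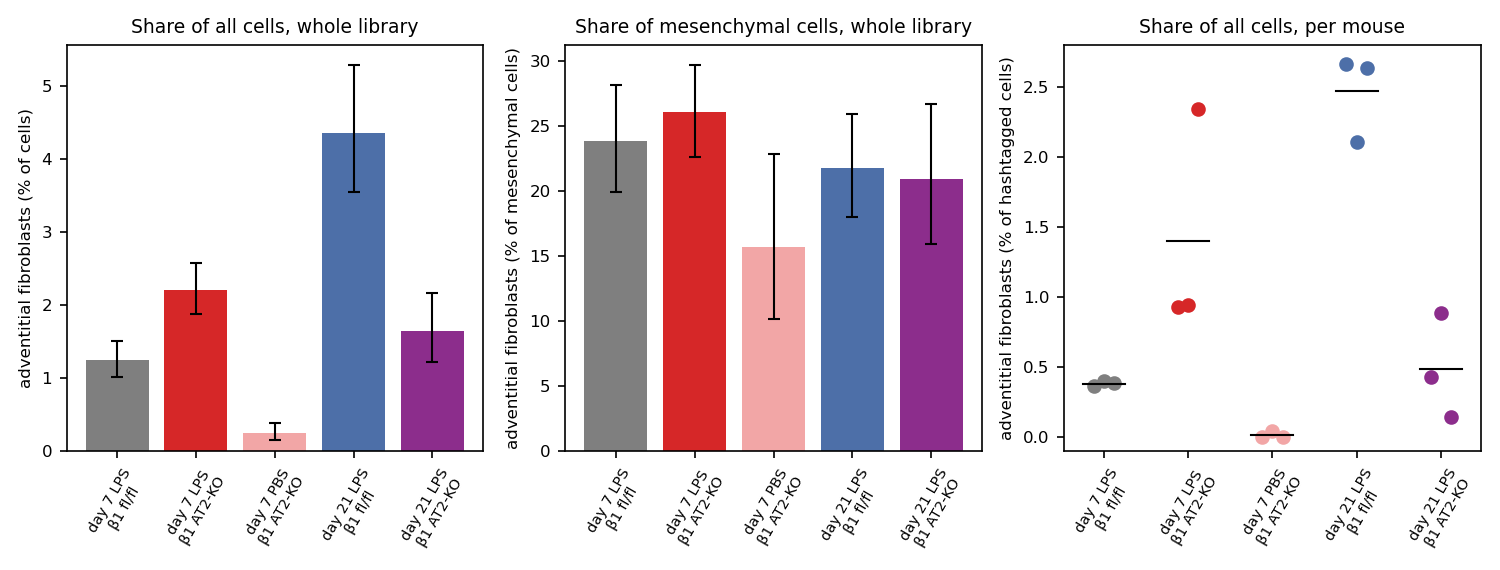
Bars show adventitial fibroblasts as a percentage of all cells (left) and of mesenchymal cells (centre) in each of the 5 libraries, with exact 95% binomial intervals; points on the right show the percentage among hashtagged cells of each mouse, with a line at the mean of 3 mice. The share of all cells ran from 0.254% (day 7 PBS) to 4.36% (day 21 LPS β1 fl/fl), whereas the share of mesenchymal cells stayed between 15.7 and 26.0%.

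The 4 genes of the rule chose the cells, so their levels are given as a description. Col14a1 was detected in 96.2, 95.6, 86.4, 93.8 and 94% of the cells, Dpt in 85.6, 88.8, 77.3, 90.7 and 88%, Pi16 in 78.8, 72.5, 63.6, 69.1 and 62% and Ccl11 in 57.7, 53.1, 40.9, 54.6 and 50%. The median cell carried 22, 21, 13.5, 22 and 16.5 UMIs of the 4 genes together, well past the threshold of 3. At the threshold itself, 1, 14, 1, 4 and 4 cells had exactly 3 such UMIs and were kept, whereas 6, 10, 5, 5 and 2 cells had 2 and were not. Another 7, 16, 6, 6 and 2 cells had 3 or more UMIs from a single marker and were not kept either. The kept cells had median totals of 5197, 5588, 3892, 5940 and 4430 UMIs, and the library sums of 589749, 1014838, 94531, 608035 and 246521 UMIs set the precision of every level below, with the PBS library the shallowest.

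Markers that the rule had not used went with the label. Of 20 further adventitial markers, 17 were higher in these cells than in the alveolar fibroblasts of the same library in all 5 libraries, 14 of them at least 2-fold, and the exceptions were Pcolce2, Fbn1 and Adh7. The alveolar fibroblasts here were the 67, 149, 15, 93 and 57 cells that passed the same exclusions and had both Tcf21 and Npnt detected. Levels are UMIs of a gene per 1000000 UMIs of the gated cells (CPM). Decorin (Dcn), a small proteoglycan that binds collagen fibrils, stood at 10101, 11656, 7913, 13743 and 14392 CPM in adventitial against 1286, 1982, 117, 2851 and 1546 CPM in alveolar fibroblasts. Conversely, 11 of 13 alveolar markers, among them the Tcf21 and Npnt of the gates, were lower than in alveolar fibroblasts in every library. The other two, the BMP family gene Gdf10 and the lipoprotein lipase gene Lpl, were higher in every library. Of markers of other cell types, Msln, Wt1, Upk3b, Ptprc, Cdh5, Pecam1 and Epcam were at 0 by the rule itself. Outside the rule, Lrrn4 (mesothelial) and the immune genes Laptm5, Tyrobp, Cd3e, Cd79a and S100a8 were at 0 in every library. Summed over the whole lists, mesothelial markers reached 0 to 24.3 CPM, immune markers 10.6 to 442 CPM (the highest at day 21 in β1 AT2-KO), endothelial markers 325 to 768 CPM, pericyte markers 349 to 899.7 CPM and smooth muscle markers 81.1 to 688 CPM (the highest with PBS). The summed epithelial markers were at 1255, 1756, 444, 1118 and 6916 CPM and endothelial cells of the same libraries held more of them, at 5228, 6545, 1240.5, 4027 and 18269 CPM. Free RNA from broken cells enters every droplet, so a level in endothelial cells is given below beside genes that fibroblasts may not make.

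Genes that set adventitial apart from alveolar fibroblasts in every library went beyond the marker lists. The gates themselves separated these cells by transcripts, so these ratios are a description with no test. Among 1128 genes with at least 100 CPM in adventitial fibroblasts of every library, 53 were at least 2-fold and 17 at least 4-fold higher than in alveolar fibroblasts in all 5. In the other direction, 89 of 1043 genes were at least 2-fold and 27 at least 4-fold lower. Ranked by the lowest ratio of any library, the first gene was Penk, which encodes the precursor of the enkephalin opioid peptides, at 254, 440.5, 328, 359 and 320.5 CPM against 3.34, 24.6, 0, 17.1 and 0 CPM. The lowest adventitial level of Penk (254 CPM) was far above the highest alveolar level (24.6 CPM).

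The genes that followed Penk fell into several kinds. Secreted and matrix-associated products included Serpinf1, the anti-angiogenic serpin PEDF, at 1326, 1621, 1259, 2003 and 1692 CPM against 167, 297, 70.2, 274 and 157 CPM, lumican (Lum), a collagen-binding proteoglycan, at 1068, 1449, 571, 997 and 1286 against 36.7, 131, 0, 164 and 257 CPM, and the hyaluronan-binding protein Tnfaip6 at 463, 1070.1, 857, 789 and 613 against 107, 164, 93.6, 37.7 and 83.9 CPM. Also of this kind were Tgfbi, Htra3, Olfml2b, Itih5 and the heparan sulphatase Sulf2. Surface proteins included Cd248 (endosialin), the ecto-nucleotidase Entpd2, the ferritin receptor Scara5, the aminopeptidase Anpep and Ly6a, which encodes the stem cell antigen Sca-1. Ly6a was no adventitial-only gene in these libraries, since endothelial cells held 4061 to 6752 CPM of it against 1184 to 1918 CPM here. The transcription factors Ebf1 and Myc completed the group, Ebf1 at 215, 317, 179.8, 276 and 292 against 13.4, 23, 0, 48 and 36.7 CPM. On the alveolar side the first genes of the ranking were Scube2, Slc7a10 and Upk1b, none of which passed 21.2 CPM in adventitial fibroblasts, followed by Nebl, the integrin subunit gene Itga8, Col13a1 and the cortisol-activating enzyme gene Hsd11b1.

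**Figure D2:**
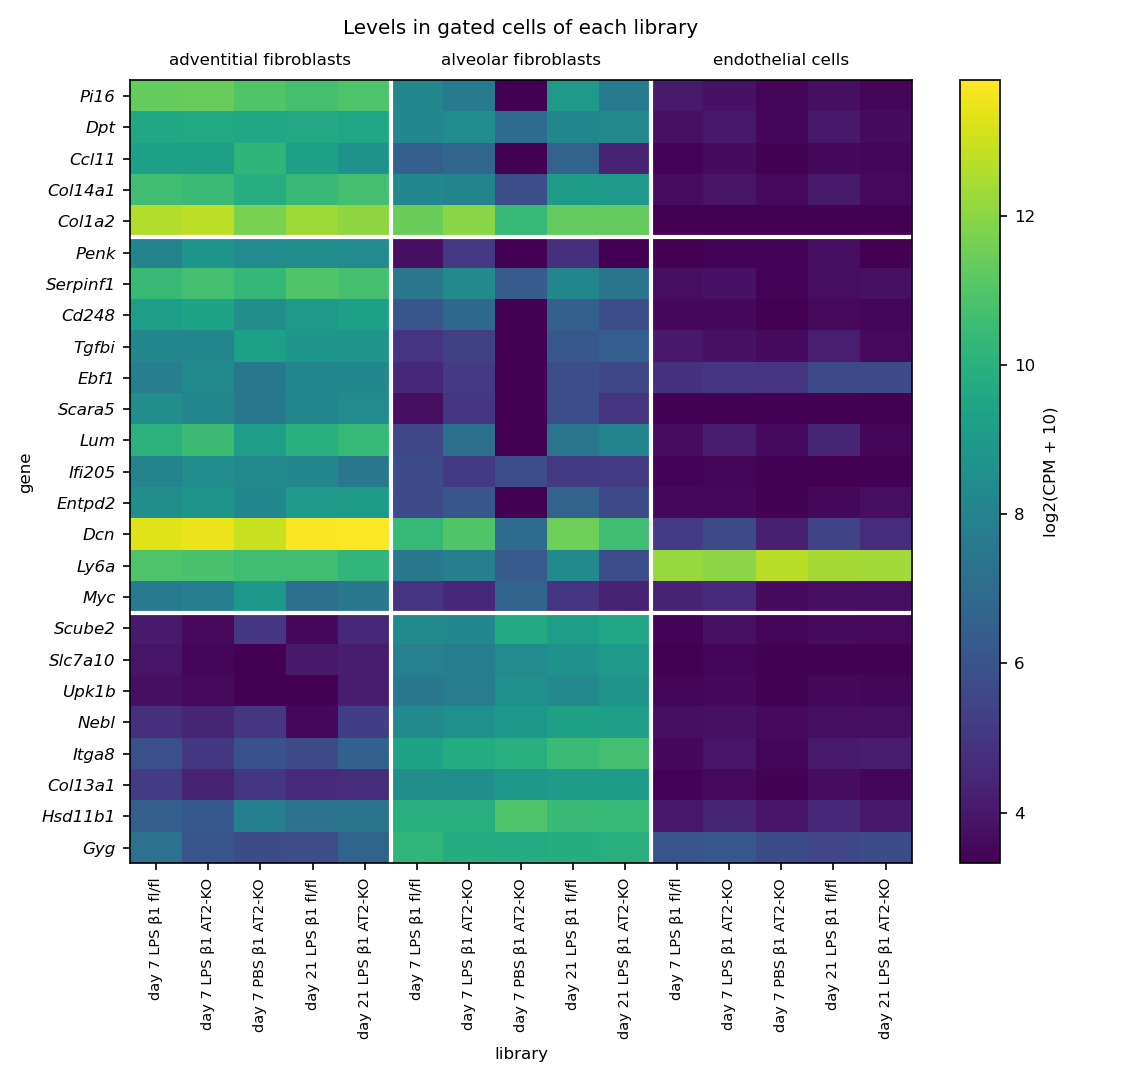
Each column is 1 library of adventitial fibroblasts, alveolar fibroblasts or endothelial cells and each row a gene; colour gives log2(CPM + 10). The top block holds the genes of the rule, the middle block the 12 genes with the highest and the bottom block the 8 genes with the lowest adventitial to alveolar ratio across libraries, and Dcn reached 7913 to 14392 CPM in adventitial against 117 to 2851 CPM in alveolar fibroblasts.

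The gated cells were not uniform. Splitting them by a UMI of Pi16, a choice made after values were seen and given without a test, placed 82, 116, 14, 67 and 31 cells on the Pi16 side and 22, 44, 8, 30 and 19 on the other, with median totals of 5254, 6772, 4363, 6372 and 5276 UMIs against 4355, 3713, 3317, 4573 and 3209 UMIs, so cells without Pi16 were also shallower. In the 4 libraries with at least 50 cells, the adhesion receptor gene Adgrd1 came first by its lowest ratio, with 174, 239, 234, 199 and 235 CPM beside Pi16 and 26.5, 72.2, 32.7, 59.5 and 69.5 CPM without it. Surface antigens moved with Pi16 too: Ly6c1 stood at 913, 784, 734, 528 and 728 against 124, 315, 851, 198 and 97.3 CPM and Cd34 at 1209, 990.2, 1297, 1031 and 979.7 against 600.3, 511, 524, 483 and 459 CPM. For Ly6c1 the 22 cells of the PBS library went the other way. The microfibril gene Mfap5, the transcription factor genes Prrx1 and Osr1 and the glypican gene Gpc3 were likewise higher beside Pi16 in those 4 libraries.

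Cells without Pi16 held a different set. The autotaxin gene Enpp2, whose product makes lysophosphatidic acid, stood at 494, 872, 1408, 602 and 1223 CPM in them against 23.1, 69.4, 15.6, 48.2 and 68.7 CPM, and Hhip, the hedgehog-binding inhibitor, at 406, 676, 2587, 1131 and 1292 against 88.1, 49.9, 219, 37.2 and 45.8 CPM. The cytochrome gene Cyp2e1 followed at 477, 165, 884, 198 and 292 against 14.7, 4.87, 46.9, 6.57 and 11.5 CPM. Hhip, Enpp2 and the proteoglycan gene Aspn are markers of peribronchial fibroblasts in the lists used here. Hhip was detected in 17.3, 12.5, 45.5, 20.6 and 16% of the gated cells (in 18, 20, 10, 20 and 8 cells, of which 7, 6, 5, 10 and 5 lacked Pi16), and 46 of 88, 131 of 172, 79 of 93, 171 of 188 and 93 of 101 of its UMIs lay in cells without Pi16. Of 998 genes past the minimum level, 10 were at least 2-fold higher without Pi16 in each of the 4 libraries, and of 1178 genes 5 were at least 2-fold higher with it. The gate thus took in some cells with peribronchial transcripts. By cells the PBS library was highest for Hhip but not for Enpp2, which was detected in 17.3, 32.5, 27.3, 28.9 and 36% of cells.

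**Figure D3:**
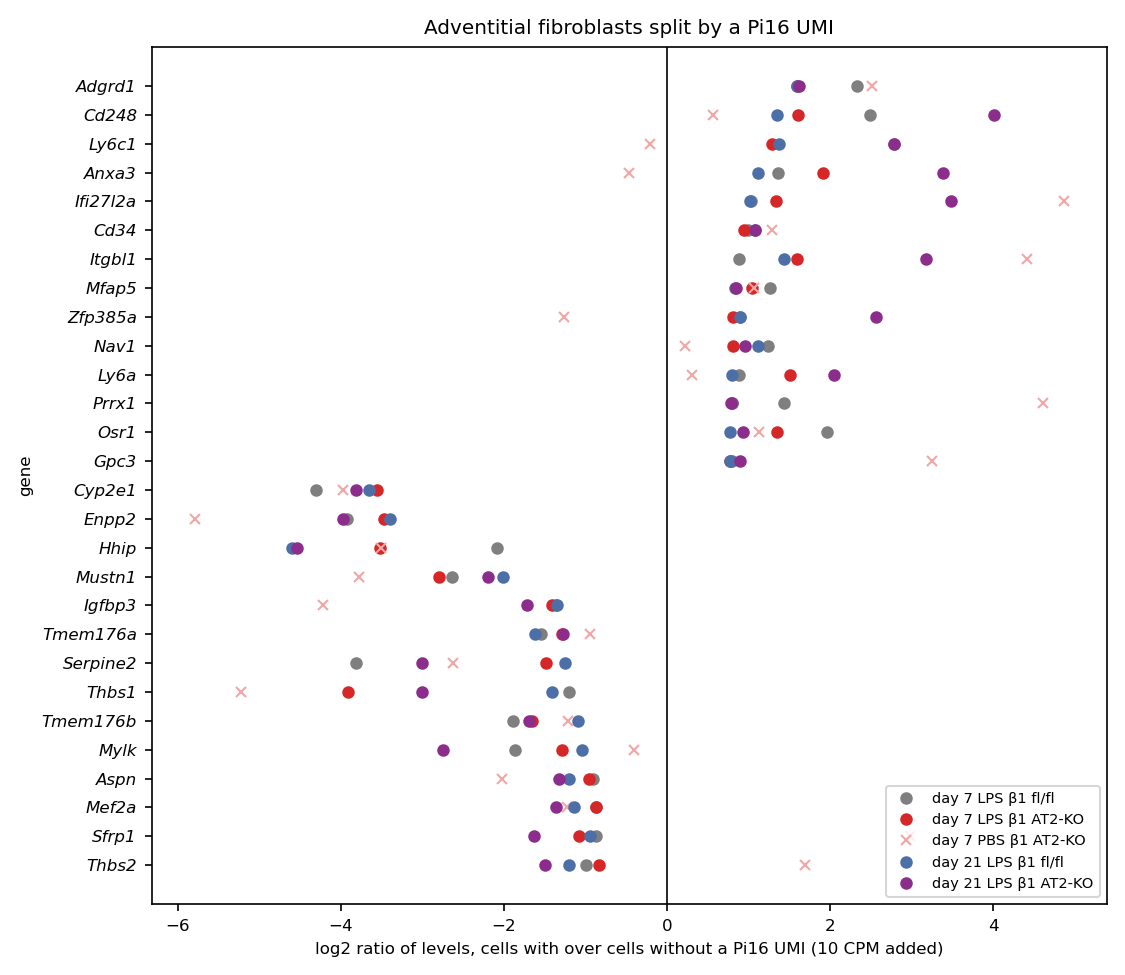
Each row is a gene and each mark 1 library; the horizontal axis gives the log2 ratio of its level in cells with a Pi16 UMI over its level in cells without, after adding 10 CPM to both. Marks of the 4 libraries with at least 50 cells lie on the right for the upper 14 genes and on the left for the lower 14, whereas the 22 cells of the PBS library (crosses) scatter on either side for some of them.

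At day 7 after LPS, 3 chemokine genes and a complement gene were higher in hashtagged adventitial fibroblasts of β1 AT2-KO than of β1 fl/fl mice, whereas cells without a clear hashtag shared only the difference in the complement gene. Over the hashtagged mice, 7 of 1850 genes tested (0.378%) passed an adjusted p of 0.05 in edgeR's quasi-likelihood test with Benjamini-Hochberg adjustment over all genes tested, 5 higher in β1 AT2-KO (0.27%) and 2 lower (0.108%), and 177 genes had an unadjusted p under 0.05. The cells that entered were the 15, 17 and 13 of the β1 fl/fl mice and the 18, 25 and 49 of the β1 AT2-KO mice whose leading hashtag was at least 3 times the next, which is 45 of 104 and 92 of 160 cells. Ccl7, a monocyte chemoattractant, was at 40.2, 51.3 and 10.2 CPM in the β1 fl/fl mice and 302, 238 and 259 CPM in the β1 AT2-KO mice (log2 change 2.99, SE 0.38, adjusted p = 0.00296, edgeR). Cxcl13, the B cell chemoattractant, was at 40.2, 10.3 and 61.2 CPM against 1139.9, 422 and 194 CPM (log2 change 3.94, SE 0.74, adjusted p = 0.0451, edgeR). For both genes every β1 AT2-KO mouse lay above every β1 fl/fl mouse, with the 3 β1 AT2-KO mice close together for Ccl7 and wide apart for Cxcl13.

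Cxcl14, a chemokine of many stromal and epithelial cells, was at 20.1, 20.5 and 0 CPM in β1 fl/fl and 174, 89.2 and 155 CPM in β1 AT2-KO mice (log2 change 3.36, SE 0.58, adjusted p = 0.0289, edgeR). C7, a component of the complement membrane attack complex, was at 704, 698 and 591 CPM against 1359, 1266 and 1631 CPM (log2 change 1.15, SE 0.20, adjusted p = 0.0289, edgeR). Both genes are more abundant in alveolar than in adventitial fibroblasts, Cxcl14 at 706 to 1451 against 56 to 134 CPM and C7 at 1463 to 2925 against 600.3 to 1503 CPM. C7 also rose in endothelial cells of the same mice (log2 2.30, adjusted p = 0.002, edgeR), from 3.74 to 17.3 CPM, far below the level in fibroblasts. The part of free RNA in the adventitial difference was not tested. Across up to 16 settings of the gate, filter, test and mice, Ccl7 passed in 14 of 15, Cxcl13 in 8 of 15, Cxcl14 in 6 of 9 and C7 in 7 of 16 in which it was tested, and none of the 4 changed direction. By the GENCODE annotation of GRCm38, Ccl7 lies on chromosome 11 (82045712 to 82047525), between Ccl2 (82035571 to 82037453) and the rule's own gene Ccl11 (82057823 to 82062955), whereas Cxcl13, Cxcl14 and C7 lie on chromosomes 5, 13 and 15.

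The chemokine differences rested on the hashtagged cells. In the remaining cells, β1 fl/fl against β1 AT2-KO, Ccl7 was at 159 and 141 CPM, Cxcl13 at 153 and 2.88 CPM and Cxcl14 at 98.4 and 80.6 CPM, each lower in β1 AT2-KO, whereas C7 stayed higher at 536 and 1537 CPM. These cells cannot be assigned to mice, so their values have no test. In the whole libraries Ccl7 was at 96.7 CPM (95% interval 73.2 to 125) in β1 fl/fl and 221 CPM (95% interval 193 to 252) in β1 AT2-KO, Cxcl13 at 95 and 289.7 CPM, Cxcl14 at 56 and 121 CPM, and C7 at 600.3 and 1503 CPM. Their log2 ratios were 1.18 (0.77 to 1.64), 1.60 (1.19 to 2.05), 1.10 (0.55 to 1.72) and 1.32 (1.16 to 1.49), so tagged and untagged cells together kept the direction of the tagged ones, with smaller chemokine differences than over mice. Of 18 chemokine and cytokine genes with at least 10 UMIs in these libraries, 6 had a log2 ratio of at least 1 (4.63% of all such genes did) and 1 of -1 or less (4.91%). Few cells carried these transcripts. Ccl7 was found in 7 of 104 and 30 of 160 cells, and 1 β1 fl/fl cell held 37 of the 57 UMIs. Cxcl13 was found in 10 of 104 and 12 of 160 cells, with 293 of the 294 UMIs of the β1 AT2-KO library in its 92 tagged cells. After thinning every cell to 2000 UMIs, Ccl7 was detected in 5.1 and 14.9% of adventitial fibroblasts and in 0.125 and 0.162% of endothelial cells, and C7 in 41.8 and 66.2% against 0.752 and 3.14%. For Cxcl13 the adventitial shares were 6.12 and 6.76%, from 6 and 10 positive cells, tagged and untagged together. In the unthinned β1 AT2-KO library 88 of its 294 UMIs lay in 1 cell. The share of positive cells among tagged cells alone was not counted.

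Of 22 chemokine and cytokine genes in the list used, 11 passed the filter on low counts, and 3 of those 11 passed the test higher and none lower, against 0.27 and 0.108% of all genes. The 3 genes, Ccl7, Cxcl13 and Cxcl14, were at 61.2 CPM or less in every β1 fl/fl mouse. They passed the filter through the β1 AT2-KO mice, where they are high, so this count is a description and no support for a shift of the list. Ccl2, the neighbour of Ccl7 on chromosome 11 and a ligand of the same monocyte receptor, was at 10.1, 154 and 10.2 CPM in β1 fl/fl and 325, 285 and 188 CPM in β1 AT2-KO mice and did not pass (log2 change 2.20, SE 0.59, adjusted p = 0.178, edgeR), with 1 β1 fl/fl mouse far above the other two. Without that mouse the log2 change of Ccl2 was 4.64 (adjusted p = 0.00317, edgeR), and without any other single mouse it was 1.71 to 2.43 (adjusted p = 0.224 to 0.44, edgeR), so 1 mouse decided the call. Cxcl12, which retains leukocytes and progenitors in tissue, pointed the other way at 1156, 3089 and 1448 against 423, 832 and 946 CPM (log2 change -1.29, SE 0.37, adjusted p = 0.202, edgeR). In the whole libraries Cxcl12 was at 1412 and 777 CPM. The neutrophil chemoattractant Cxcl1 was at 764, 862 and 1254 against 695, 505 and 576 CPM (adjusted p = 0.344, edgeR).

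The protease gene Mmp3, Igfbp3 and Aldh1a2 were lower in β1 AT2-KO and came close to the threshold without passing it, although their lists as a whole did not lean that way: 10 of 18 matrix protease and inhibitor genes, 8 of 13 growth factor and receptor genes and 4 of 9 retinoid and detoxification genes were fit higher, beside 910 of all 1850 genes. Among the 1850 genes the 3 β1 AT2-KO mice lay below all 3 β1 fl/fl mice for 176 (9.51%) and above them for 110 (5.95%). Mmp3, the stromelysin that cleaves many matrix proteins, was at 774, 708 and 693 CPM in β1 fl/fl and 362, 196 and 319 CPM in β1 AT2-KO mice (log2 change -1.25, SE 0.25, adjusted p = 0.0606, edgeR). Igfbp3, a binding protein for insulin-like growth factors, was at 784, 390.0 and 642 against 45.3, 184 and 202 CPM (log2 change -1.92, SE 0.40, adjusted p = 0.083, edgeR), and in the whole libraries at 539 and 156 CPM. Aldh1a2, which makes retinoic acid, was at 111, 133 and 265 against 45.3, 29.7 and 49.1 CPM (log2 change -1.90, SE 0.39, adjusted p = 0.0766, edgeR). For all 3 genes the mice did not overlap, and DESeq2's Wald test called Mmp3 and Igfbp3. Igfbp3 was also among the genes higher in cells without Pi16, which were 22 of 104 and 44 of 160 cells of these libraries.

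The remaining calls were shared with endothelial cells. The α-tubulin gene Tuba1a was at 241, 144 and 133 CPM in β1 fl/fl and 1155, 1058 and 996 CPM in β1 AT2-KO mice (log2 change 2.68, SE 0.27, adjusted p = 0.000441, edgeR), and the gene model Gm8797 at 191, 133 and 122 against 22.6, 0 and 5.46 CPM (log2 change -4.11, SE 0.59, adjusted p = 0.00658, edgeR). Endothelial cells of the same mice had log2 changes of 2.87 (adjusted p = 1.49e-07) and -4.04 (adjusted p = 5.74e-08, edgeR) for these genes. By library, Tuba1a was at 151, 1044, 1195, 202 and 279.9 CPM in adventitial fibroblasts and 128, 938, 1149, 249 and 336 CPM in endothelial cells, and Gm8797 at 159, 6.9, 21.2, 197 and 101 against 156, 9.27, 11.2, 264 and 115 CPM, so both genes separated the 2 day 7 β1 AT2-KO libraries, LPS and PBS alike, from the other 3 in both cell types. The last call, Xist, was at 241, 205 and 163 CPM in the β1 fl/fl mice and at 0 UMIs in the β1 AT2-KO mice and follows the sex of the mice. Itgb1, the gene deleted in AT2 cells, was at 476, 468, 592, 487 and 462 CPM in adventitial fibroblasts of the 5 libraries.

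Immediate early genes, which are transcribed within minutes of a stimulus and also during tissue dissociation, were all on one side. All 17 genes of the list were fit higher in β1 AT2-KO, with a median log2 change of 0.72 against -0.01 for all genes, and in 5 of 17 the β1 AT2-KO mice lay above all β1 fl/fl mice, against 5.95% of all genes. None of the 17 passed the adjusted threshold in edgeR, 11 had an unadjusted p under 0.05 (177 of 1850 among all genes), and DESeq2's Wald test called 2. Klf2 was at 935, 534 and 285 CPM in β1 fl/fl and 2031, 1319.6 and 1620.2 CPM in β1 AT2-KO mice (log2 change 1.54, SE 0.34, adjusted p = 0.0837, edgeR), Ier2 at 1317, 626 and 1713 against 2363, 2366 and 2354 CPM, and the mRNA decay factor gene Zfp36 at 3459, 1755 and 2192 against 4129, 4137 and 3769.6 CPM. In endothelial cells of the same mice Klf2, Ier2 and Zfp36 had log2 changes of 0.66, 0.50 and 0.67 (adjusted p = 0.0313, 0.199 and 0.134, edgeR). The summed level of the list was 22242, 35957, 34719, 29194 and 23361 CPM in adventitial fibroblasts and 10864, 15560, 19543, 19347 and 14890 CPM in endothelial cells, with the day 7 LPS β1 fl/fl library lowest in both. In alveolar fibroblasts the sums were 13889, 16224, 36981, 5527 and 6054 CPM, with the day 21 libraries lowest. The part of dissociation in these levels was not tested.

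No collagen or basement membrane gene passed the test for genotype at day 7. Among all 1850 genes 910 were fit higher in β1 AT2-KO and 940 lower, and 177 had an unadjusted p under 0.05. Of 9 tested fibrillar and fibril-associated collagen genes 8 were fit higher in β1 AT2-KO, with a median log2 change of 0.27 and none called, and in 2 of the 9 the β1 AT2-KO mice lay above all controls (5.95% of all genes did). In whole libraries Col1a1 was at 12071 and 13582 CPM and Col3a1 at 13552 and 16490.3 CPM. Of 11 basement membrane genes 9 were fit higher, with a median of 0.41, and 4 were above all controls (again against 5.95%), among them the perlecan gene Hspg2 at 141, 174 and 143 against 257, 219.9 and 295 CPM and the nidogen gene Nid1 at 674, 554 and 275 against 815, 779 and 693 CPM (adjusted p = 0.223 and 0.497, edgeR). None of the 11 passed in edgeR, with 4 at an unadjusted p under 0.05, and none in DESeq2's Wald test; the same held for the collagens, with 2 at an unadjusted p under 0.05. Elastin (Eln) was at 965, 1006 and 2916 against 611, 1617 and 1331 CPM, with 1 β1 fl/fl mouse well above the rest (log2 change -0.37, SE 0.42, adjusted p = 0.836, edgeR). Of 5 tested WNT, BMP and hedgehog niche genes 4 were fit lower (median -0.54), and in 3 the β1 AT2-KO mice lay below all controls (9.51% of all genes did), namely the secreted inhibitor genes Sfrp4, Dkk3 and Nbl1. None of the 5 was called in edgeR or DESeq2, with 3 at an unadjusted p under 0.05. No gene of the proteoglycan, elastic fibre, NF-κB, interferon, TGF-β, integrin, retinoid or heat shock lists was called by edgeR or DESeq2 either (0 of 7, 4 of 18, 4 of 10, 1 of 9, 2 of 9, 0 of 2, 1 of 9 and 1 of 10 at an unadjusted p under 0.05), and their median log2 changes lay between -0.08 and 0.44. Of circadian clock and output genes 2 were tested and none was called. In whole libraries 7 of 15 such genes had a log2 ratio of at least 1 (4.63% of all genes did) and 2 of -1 or less (4.91%), with a median of 0.74. In endothelial cells of the same mice Dbp, Tef and Per3 were higher (log2 3.32, 1.71 and 1.74, adjusted p = 0.0042, 0.0093 and 0.026, edgeR). Arntl was lower there without passing (log2 -1.19, adjusted p = 0.13, edgeR).

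**Figure D4:**
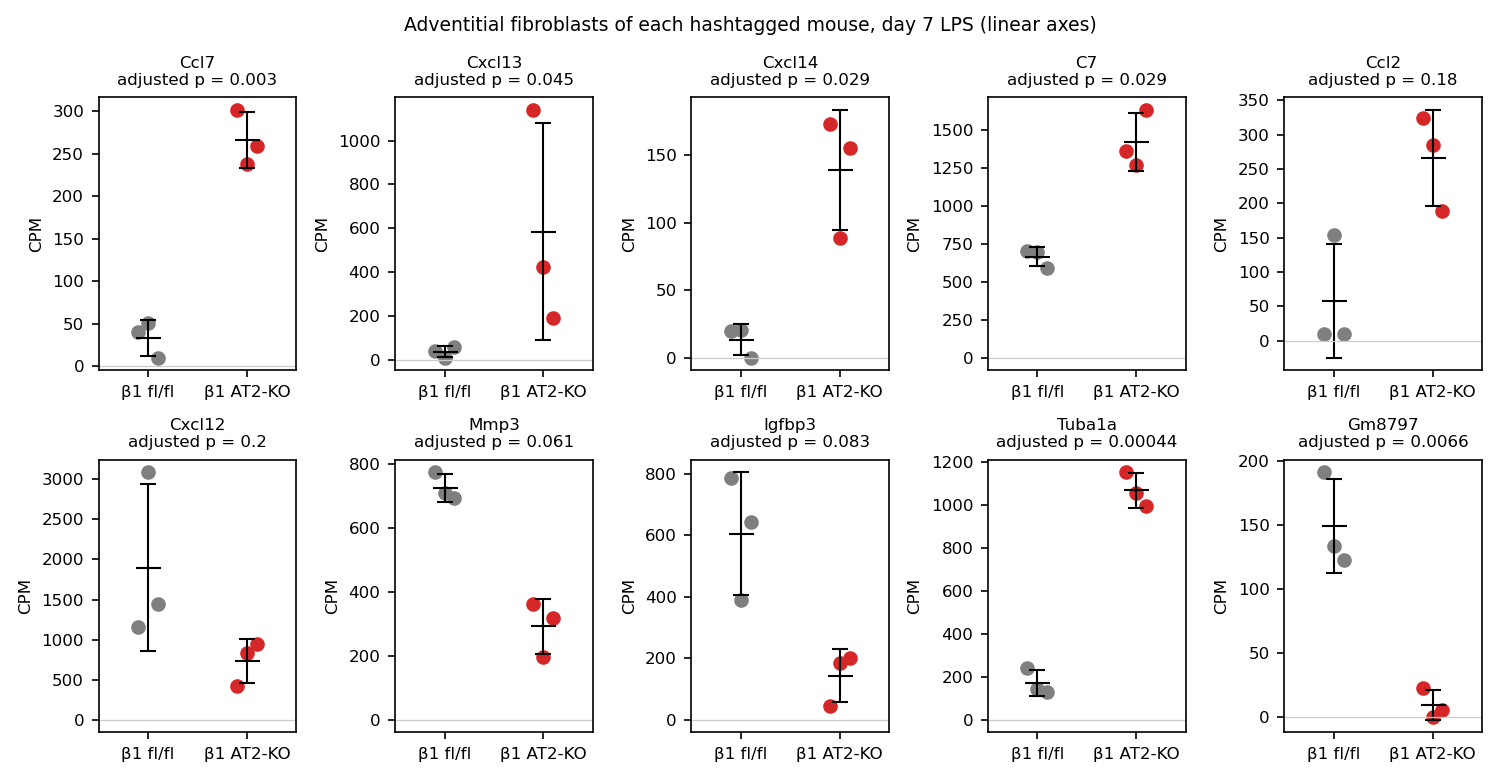
Points give the CPM of 10 genes in the adventitial fibroblasts of each hashtagged mouse, 3 β1 fl/fl and 3 β1 AT2-KO at day 7 after LPS, with mean and SD in black and edgeR's adjusted p above each panel. Ccl7, Cxcl13, Cxcl14, C7 and Tuba1a passed as higher and Gm8797 as lower in β1 AT2-KO, whereas Ccl2, Cxcl12, Mmp3 and Igfbp3 did not pass.

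Compared with PBS, adventitial fibroblasts of LPS-treated β1 AT2-KO lungs had higher levels of collagen and acute phase genes at day 7. Only 1 PBS cell had a usable hashtag, so there is no test over mice, and the 22 PBS cells hold 94531 UMIs. Sex differed along with treatment, since the PBS cells held 22 Xist and 6 Y-linked UMIs and the LPS cells 0 and 128. The part of sex in these differences was not tested. For a gene at 0 there, 3 counts would be 31.7 CPM, a bound for counting error alone that does not cover transcripts held by few cells. Across 9092 genes with at least 10 UMIs in the pair of libraries the median log2 ratio of LPS over PBS was -0.25, 12.2% were at 1 or above and 17.6% at -1 or below. Col1a1 was at 5849.9 CPM (95% interval 5372 to 6358) with PBS and 13582 CPM (95% interval 13357 to 13811) with LPS, a log2 ratio of 1.21 (1.09 to 1.34), Col3a1 at 6463 and 16490.3 CPM (log2 ratio 1.35, interval 1.23 to 1.47) and Col5a2 at 328 and 1321 CPM (log2 ratio 1.99). In all, 7 of 13 collagen genes were at least 2-fold higher with LPS and none as much lower, with a median of 1.02. The other matrix lists did not share this, with 1 of 12 basement membrane genes (median 0.15), 1 of 19 elastic fibre genes (0.11) and 1 of 9 proteoglycan genes (0.18) at least 2-fold higher and 0, 1 and 1 as much lower. The β1 fl/fl LPS library stood near the β1 AT2-KO one for these genes, with Col1a1 at 12071 CPM.

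Activated fibroblast genes showed the same order. Fibronectin (Fn1) was at 264 CPM with PBS and 1159.8 CPM with LPS, a log2 ratio of 2.10 (1.56 to 2.77). Periostin (Postn), a matrix protein of remodelling tissue, had 0 UMIs in the 22 PBS cells and 433 CPM with LPS, in 57 of 160 cells. That level is 13.6-fold the level of 3 counts in the PBS library. Cthrc1, a marker of fibrotic fibroblasts, had 0 UMIs with PBS and was in 12 of 104 and 14 of 160 LPS cells at day 7, with 61 of the 89 β1 AT2-KO UMIs in 1 cell. The interval for 0 of 22 PBS cells reached 15.4% and so included the 11.5 and 8.75% of LPS cells with Cthrc1. By day 21 Cthrc1 was down to 1 and 0 UMIs, whereas Postn was at 174 and 316 CPM. Of the 106 Postn UMIs in day 21 β1 fl/fl, 79 came from 1 cell. Without the cell with most Postn UMIs in each library the day 21 levels were 44.9 and 229 CPM. Of 11 genes of that list with enough UMIs, 6 were at least 2-fold higher with LPS (12.2% of all genes were) and 2 as much lower (17.6%).

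Complement and acute phase genes of the list were at least 2-fold higher with LPS in 7 of 18 cases and as much lower in none, with a median log2 ratio of 0.92. Among all genes 12.2% were at least 2-fold higher and 17.6% as much lower. C3, the central complement component, was at 5333, 5216, 2009.9, 3661 and 4998 CPM over the 5 libraries, Cfb, a component of the alternative pathway convertase, at 509, 440.5, 148, 266 and 199 CPM and the acute phase protein gene Saa3 at 429, 209, 0, 3.29 and 8.11 CPM. Saa3 was thus found at day 7 after LPS in both genotypes, in 16 of 104 and 19 of 160 cells, and at day 21 in 2 of 97 and 2 of 50. Single cells held 89 of the 253 and 94 of the 212 day 7 LPS UMIs. The interval for 0 of 22 PBS cells reached 15.4% and so included the 11.9% of LPS β1 AT2-KO cells. Of 18 chemokine and cytokine genes 5 were at least 2-fold higher with LPS and 3 as much lower (median log2 ratio 0.51), the lower count being near the 17.6% of all genes. All 90 Ccl7, 49 Ccl2 and 63 Cxcl10 UMIs of the PBS library came from 1 cell. Cxcl12, found in 14 of 22 PBS cells, was at 487 CPM with PBS and 777 CPM with LPS. Cxcl13 had 0 UMIs with PBS and was in 12 of 160 LPS cells (7.5%), with 88 of 294 UMIs in 1 cell. The interval for 0 of 22 PBS cells reached 15.4%, so no least fold can be given for Cxcl13.

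Other genes were higher with PBS. Hhip was at 149, 169, 984, 309 and 409.7 CPM and Enpp2 at 114, 223, 465, 186 and 406 CPM, both peribronchial markers, and the smooth muscle actin gene Acta2 at 132, 81.8, 370.2, 107 and 40.6 CPM. Of 5 peribronchial markers with enough UMIs 4 and of 3 smooth muscle markers 3 were at least 2-fold lower with LPS, against 17.6% of all genes. Fmo2, a flavin monooxygenase of xenobiotic metabolism, was at 716, 516, 1629, 865 and 892 CPM, and the retinoid and detoxification list had a median log2 ratio of -0.85. Whether the 22 PBS cells held a larger part of peribronchial cells or the same cells held more of these transcripts was not tested.

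**Figure D5:**
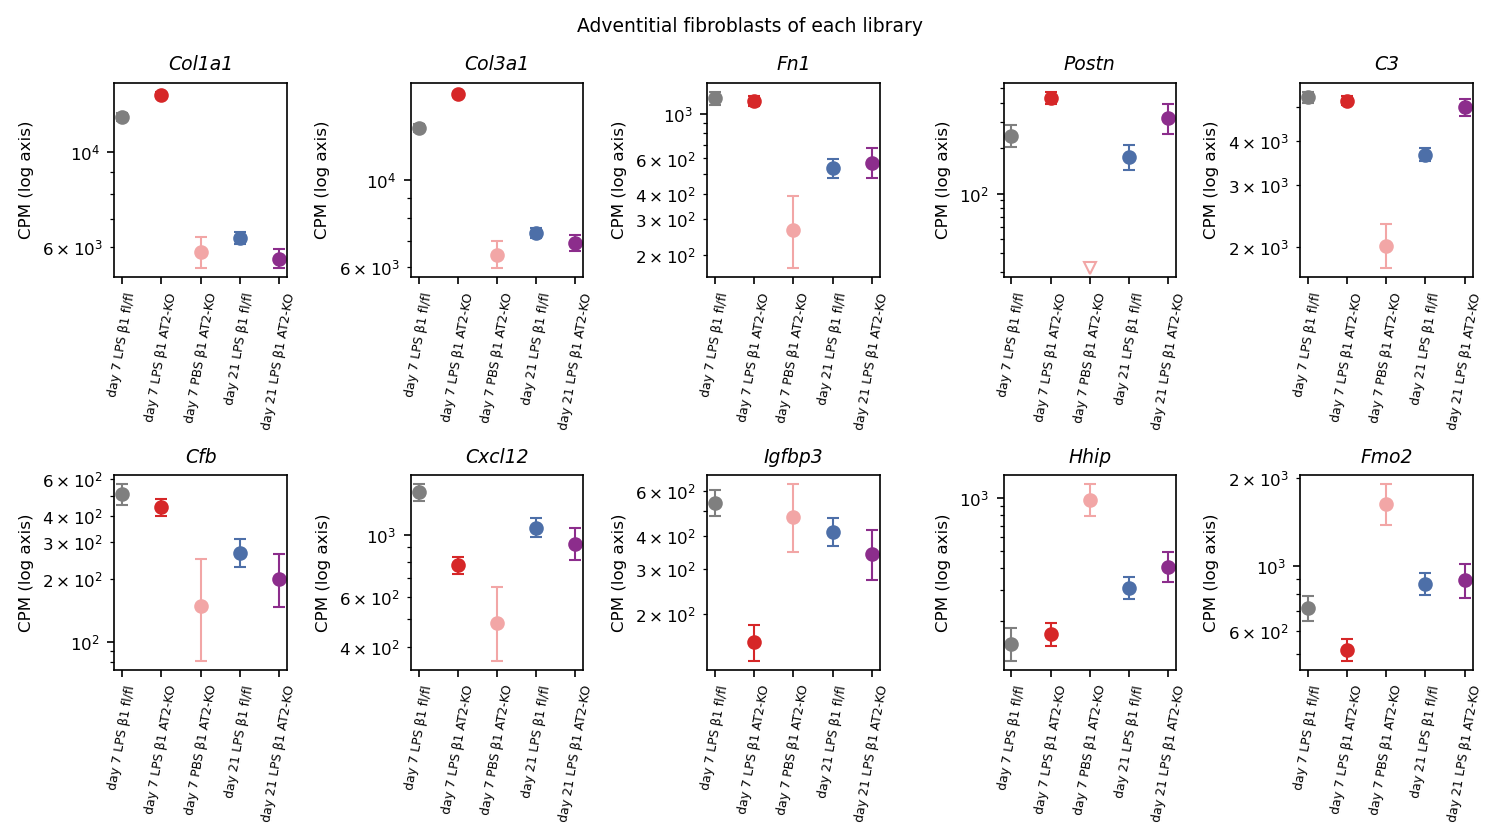
Each panel gives the level of 1 gene in the adventitial fibroblasts of the 5 libraries in CPM on a log axis with exact 95% Poisson intervals, which cover counting error only; the open triangle marks 0 UMIs, drawn at the level of 3 counts. Col1a1, Col3a1, Fn1, Postn, C3 and Cfb had their highest level in a day 7 LPS library (Postn 433 CPM), Hhip and Fmo2 in the PBS library (984 and 1629 CPM).

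At day 21 after LPS, adventitial fibroblasts of β1 fl/fl and β1 AT2-KO lungs had similar levels of matrix genes and differed in single chemokine and binding protein genes. Only 30 of 97 and 9 of 50 cells had a usable hashtag, so no test over mice was run. The sexes were unequal too, with 150 Xist and 12 Y-linked UMIs in β1 fl/fl cells and 38 and 28 in β1 AT2-KO cells. Of 8506 genes with at least 10 UMIs, 7.47% had a log2 ratio of β1 AT2-KO over β1 fl/fl of at least 1 and 5.74% of -1 or less, with a median of 0.08. Col1a1 was at 6296 CPM (95% interval 6098 to 6498) in β1 fl/fl and 5651 CPM (95% interval 5358 to 5955) in β1 AT2-KO and Col3a1 at 7348 and 6924 CPM, log2 ratios of -0.16 and -0.09. These levels were close to those of the PBS library and lower than in either day 7 LPS library, although the day 21 suspensions had been enriched differently. The 13 collagen genes had a median log2 ratio of 0.10.

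Igfbp5, another binding protein for insulin-like growth factors, was at 186 CPM (95% interval 153 to 223) and 596 CPM (95% interval 504 to 701), in 31 of 97 and 25 of 50 cells. Ccl2 was at 19.7 CPM in β1 fl/fl and 450.3 CPM in β1 AT2-KO, a log2 ratio of 4.46 (3.65 to 5.51), but in 6 cells of either library, and 48 of the 111 β1 AT2-KO UMIs came from 1 cell. Without the cell with most UMIs in each library it was at 10.2 and 264 CPM. Ccl7 had 252 and 304 CPM and C7 628 and 1139.9 CPM, a log2 ratio for C7 of 0.86 (0.63 to 1.09), which was negative among hashtagged cells alone. On the lower side were the retinol carrier gene Rbp4 at 342 and 114 CPM (log2 ratio -1.57, interval -2.22 to -1.02), the metallothionein gene Mt1 at 2643 and 1331 CPM (log2 ratio -0.99, interval -1.17 to -0.82) and the orphan nuclear receptor gene Nr4a1 at 615 and 247 CPM (log2 ratio -1.30, interval -1.73 to -0.92). Surfactant genes stood far higher in β1 AT2-KO, Sftpc at 914 and 5776 CPM, but endothelial cells of the same libraries held 2930.1 and 15327 CPM, above the level in adventitial fibroblasts. Of the lists, immediate early and NF-κB genes had median log2 ratios of -0.24 and -0.25 and WNT, BMP and hedgehog niche genes 0.41, with 1 of 17, 0 of 16 and 0 of 15 genes at -1 or less and 0, 1 and 2 at 1 or more. Among all genes 5.74% were at -1 or less and 7.47% at 1 or more.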

How the data were processed

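The libraries held sorted lung cells of mice that had been labelled with 1 hashtag antibody each and pooled. Per the labels, the authors made the deposited UMI counts per gene and barcode with Cell Ranger 3.1 on mm10; Seurat 4.1.0 is also named. No normalized value was used. Barcodes were filtered and gated as described in the report. No doublet caller was run; the gate removed barcodes with transcripts of other compartments. The planned hashtag call (4 times the background of a tag, which is its median over cells) left no β1 fl/fl mouse with 10 gated cells, so the gene test used cells whose leading tag was at least 3 times the next, and the shares used the planned call. Per the labels, the cells of each mouse carried their own hashtag, and 3 hashtags were in use in each library. The members and gene lists were chosen with earlier results of these data known.

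Counts were summed per mouse and tested with edgeR 4.0.16 (quasi-likelihood test after TMM scaling and filterByExpr, called at an adjusted p under 0.05) in R 4.3.3, and with the Wald test of DESeq2 1.42.0 as an alternative. On simulated counts of 1690 genes the day 7 fit recovered 53 of 87 genes changed by 1 log2 unit and 85 of 85 changed by 2, with 9 false calls. Ratios of libraries had 0.5 UMIs added, and those of cell types 10 CPM. Intervals are exact at 95% (Poisson for levels, Clopper-Pearson for shares, binomial for ratios) and cover counting error only. Cells were thinned to 2000 UMIs for detection shares. Named genes were the 4 markers, list genes, called genes with at least 50 CPM, Itgb1, the sex-linked genes and the 20 and 10 genes at the ends of the adventitial to alveolar ranking; the genes of the Pi16 split that are on no list were named after their values were seen. Gene positions came from a GENCODE annotation of GRCm38, which matched 99.6% of the gene identifiers. Alternatives covered normalization, test, low-count filter, gate, quality filter, hashtag call, denominator, depth and each mouse left out.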

Additional observations from a re-analysis of the deposited data

Results flagged for a closer look

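The difference in the share of adventitial fibroblasts between genotypes had opposite signs at the 2 time points. Per mouse and among all hashtagged cells, β1 AT2-KO minus β1 fl/fl was 1.02 percentage points at day 7 and -1.98 at day 21. The day 7 difference minus the day 21 difference was 3.00 percentage points, with p = 0.005 in a two-sided exact permutation test over the 400 arrangements of genotype labels within each time point, the smallest p they can give. This test was not planned, and its null is no genotype difference at either time point, so it does not test whether the 2 differences are equal. The mice of the genotypes did not overlap at either time point and lay in opposite orders, which alone fixes p at this smallest value. The difference of the differences was 3.06 (p = 0.005, exact permutation) among cells without an Epcam UMI and 29.5 (p = 0.045, exact permutation) as a percentage of hashtagged mesenchymal cells. Over all mesenchymal cells, in contrast, the shares were 23.9 and 26.0% at day 7 and 21.7 and 20.9% at day 21 (β1 fl/fl and β1 AT2-KO), with overlapping intervals. Beside the opposite signs stand 3 measured facts: the share of adventitial fibroblasts that carried a single tag changed in the same directions, at 23.1 and 43.1% at day 7 and 27.8 and 16% at day 21, the day 21 suspensions were enriched for EPCAM-positive cells, and mesenchymal cells as a whole were 5.23 and 8.49% of the day 7 LPS libraries and 20.1 and 7.87% of the day 21 ones. Their part in the difference was not tested, and with 1 library per condition a library and its condition cannot be told apart.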

How the results depend on the processing

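The 7 genes called for genotype at day 7 became 14 with DESeq2's Wald test, 101 without a filter on low counts and 4 with Ccl11 left out of the gate. With alternatives chosen after seeing the data the number was 2 with the leading hashtag at 8 times the next, 2 with the planned hashtag call (both with at least 5 cells per mouse) and 11 without cells holding a Hhip UMI. Leaving out each mouse in turn gave 4 to 18, with 18 without β1 fl/fl mouse 1 and 4 without β1 fl/fl mouse 2 or β1 AT2-KO mouse 1. Tuba1a was called in 16 of 16 settings, and none of the 7 genes changed sign in any. For whole libraries, 954 genes at day 7 and 1123 at day 21 were at least 2-fold apart; the mean over mice gave 551 and 3093, and hashtagged cells alone 1643 and 3042. At day 21 the log2 ratios of C7 (0.86), C3 (0.45) and Dcn (0.07) became -0.72, -0.15 and -0.13 as means over mice, and those of C7 and C3 -0.20 and -0.033 in hashtagged cells alone, which were 30 of 97 and 9 of 50 cells. Shares with each mouse left out in turn differed by 0.552 to 1.26 (day 7 genotype), 0.919 to 1.63 (LPS against PBS) and -2.18 to -1.81 percentage points (day 21 genotype). The causes were not tested.

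The planned tests of genes for LPS against PBS and for day 21 were not run, since too few cells carried a hashtag, and neither was a fit of mice with Y-linked transcripts alone. Hashtag counts, with 1 library per condition and 22 PBS cells, limit every value. No paired analysis was possible because hashtag numbers do not link mice of different libraries.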
